A study of Mus musculus with 9 samples.

Results

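The genes described here are the mouse matrix metalloproteinases (Mmp), the ADAMTS proteases (Adamts), the tissue inhibitors of metalloproteinases (Timp), and the urokinase plasminogen activator Plau with its receptor Plaur, as probes on Agilent 1-colour arrays of reprogrammed cells and fibroblasts. Members were all gene probes whose symbol, in the deposited description or through a RefSeq accession, was Mmp or Timp with a number or began with Adamts, with Plau and Plaur added. This gave 35 probes of 35 genes among 15452 named genes: 18 Mmp, 4 Timp, 11 Adamts and the Plau and Plaur pair. Another 6 probes name a family member in words alone (Adamts3, Adamts7, Adamts10, Mmp24, Mmp25 and Mmp28). They fall outside the rule and were not counted.

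The study hybridised RNA of 9 mouse cell samples once each, to set cells made pluripotent-like by retroviral factors beside embryonic stem (ES) cells and fibroblasts. The ES line (Fbx15-null, grown on STO feeder cells) and the MEF, mouse embryonic fibroblasts from Fbx15-null E13.5 embryos, gave 1 array each. Clones of induced pluripotent stem (iPS) cells came from Fbx15 bgeo-KI MEF, which carry a selection gene in Fbx15. A single clone each had received 4 and 10 factors, and 2 clones had received 3 factors; all were kept in ES cell medium and selected with G418 for 16 days. The labels do not name the factors. Fbx15 bgeo-KI MEF that received the 4 factors without G418 and gave no iPS clones are called the unselected MEF. One of the last pair of samples was NIH3T3 fibroblasts that a retrovirus carrying HRasV12, a constantly active form of HRas, had transformed. The other was a spontaneously immortal MEF line of wild-type origin with a retroviral transgene. The Fbx15 locus is thus altered in the ES line, the MEF, the clones and the unselected MEF, and in neither immortal line. Every level below is the log2 signal relative to the 75th percentile of its array, with a floor at -4.78. Levels of different probes are not comparable.

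Matrix metalloproteinases are zinc enzymes that cut collagens, fibronectin and other matrix proteins, and most are made as inactive proenzymes. ADAMTS enzymes are secreted relatives; some trim procollagen and others cut large proteoglycans. TIMP proteins bind the active site of these enzymes, and Timp2 also takes part in the activation of pro-Mmp2 by Mmp14 at the cell surface. Plau turns plasminogen into plasmin, a serine protease, and Plaur holds Plau on the cell. In tissue the family is known for matrix turnover by fibroblasts and for the invasion of tumour cells.

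On 9 arrays, 52.4% to 59.6% of all probes were well above background by the scanner software's own call. Fibroblast markers (10 genes, among them Col1a1, Pdgfra and Lum) summed to 467 times the 75th percentile in MEF, 651 in the unselected MEF, 203 in the immortalised MEF line and 113 in NIH3T3 HRasV12, against 7.37 to 18.6 in the clones and 15.3 in ES. Lum was not well above background in ES, all 4 clones and the immortalised MEF line. ES markers (7 genes on the array) summed to 501 in ES, 32.4 to 73.7 in the clones and at most 0.684 in the fibroblast-derived samples. In both 3-factor clones Sox2, Esrrb and Zfp42 were not well above background. Leukocyte markers summed to 11.4 in the unselected MEF, with 8 of 10 well above background, and to at most 1.96 in the other samples. The part of feeder cells, leukocytes or remaining fibroblasts in the levels below was not tested. Where a sample holds a mix of cells, fewer expressing cells and less RNA per cell cannot be told apart. The labels do not say whether samples of 1 class were grown independently, and a p-value below reflects only how much these samples vary. The number of arrays limits the precision.

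Of the 35 members, 9 were well above background on all 9 arrays (Mmp2, Mmp3, Mmp11, Mmp14, Mmp17, Adamts4, Timp1, Timp3 and Plaur), 15 on some and 11 on none. Over all 20849 probes these counts were 8850, 6139 and 5860. The members not detected on any array were Mmp7, Mmp8, Mmp12, Mmp16, Mmp20, Mmp21, Adamts12, Adamts18, Adamts19, Timp4 and Plau. The protease Plau was thus not well above background in any sample, while its receptor Plaur was in every sample. Of the 24 detected members, 15 had their highest level in MEF or the unselected MEF, 4 in NIH3T3 HRasV12, 2 in ES, 2 in a clone and 1 in the immortalised MEF line. MEF had 21 members well above background, the unselected MEF 19, the clones 12 to 16, ES 17, the immortalised MEF line 16 and NIH3T3 HRasV12 15.

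**Figure D1:**
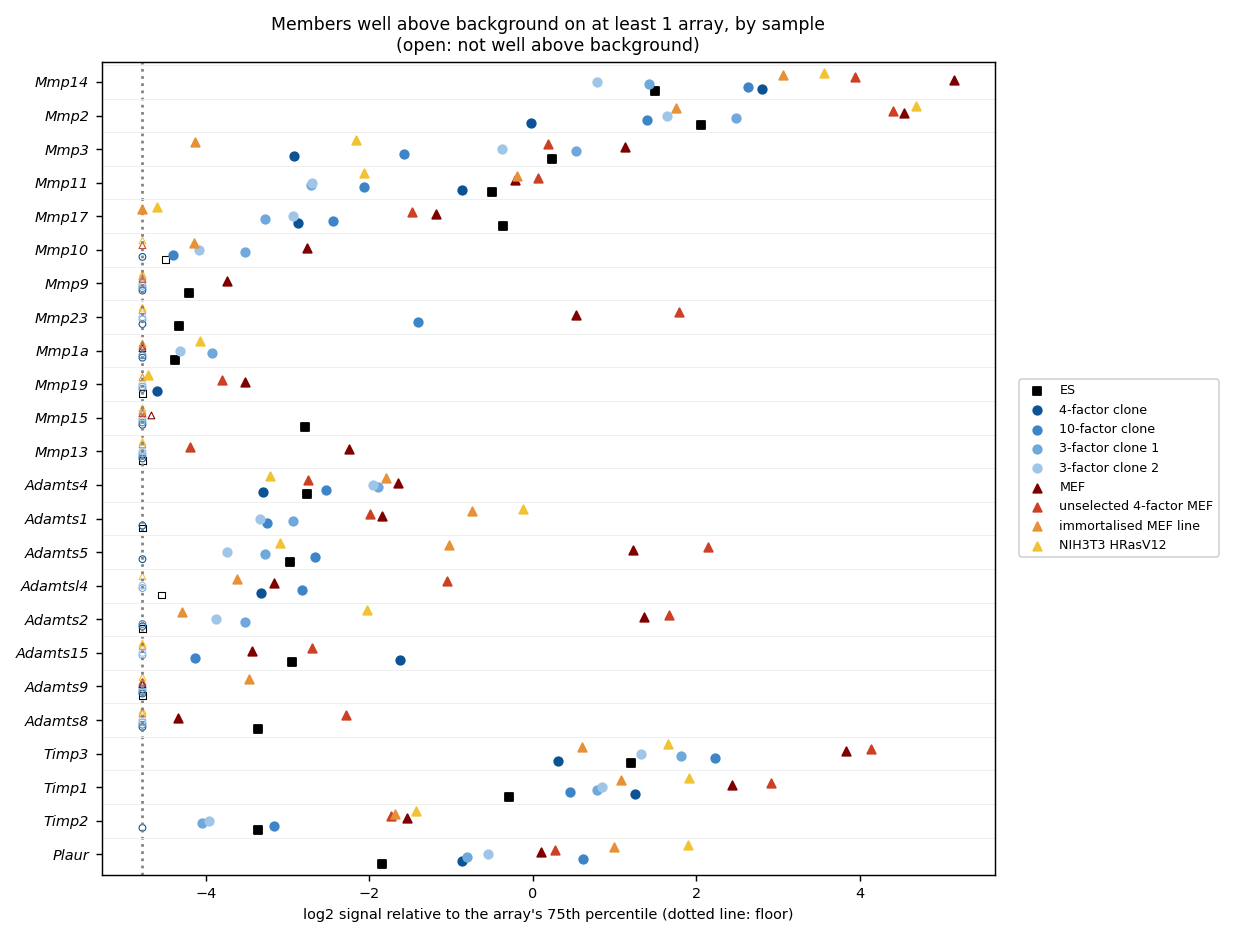
Level of each of the 24 detected members in each of the 9 samples (x axis, log2 signal relative to the 75th percentile of the array; the dotted line is the floor at -4.78; open symbols were not well above background; squares ES, circles clones, triangles fibroblast-derived samples). Adamts2, Adamts5, Mmp23 and Timp3 have MEF and the unselected MEF at the right, apart from the other samples. Timp2 and Adamts1 have all 4 fibroblast-derived samples to the right of all clones and ES.

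The promoters are shown first, since members of the chromosome 9 cluster and Plaur share a short sequence before their start. On mouse chromosome 9 (GRCm38.p6) 10 Mmp genes lie next to each other in the order Mmp13, Mmp12, Mmp1b, Mmp3, Mmp1a, Mmp10, Mmp8, Mmp27, Mmp20 and Mmp7, with 0 other protein-coding genes between them, and 8 of them have a probe here. RefSeq promoter windows (250 bases before to 50 after the start, GRCm38.p6) matched 24 of the 35 member genes, with 27 windows. The AP-1 motif TGAGTCA, or TGACTCA when read from the other strand, was in 7 of the 27 windows, those of Mmp3, Mmp7, Mmp10, Mmp12, Mmp13, Mmp1a and Plaur. It was in 5.20% of all 32851 windows of 300 bases. A TATA box (TATAAA, or TTTATA) was in 10 of 27, against 13.6% of all windows, and a GC box (GGGCGG, or CCGCCC) in 13 of 27, against 35.7%. Of the 7 AP-1 windows 6 belong to neighbouring genes of 1 cluster, so they are not independent. A match is a string of letters and not a measured binding site. The 130 bases before the start are printed 5′ to 3′ on the gene's strand, with the AP-1 letters in capitals, for the cluster genes detected on any array and for Plaur.
Mmp13 (chr9:7272384-7272513, plus strand): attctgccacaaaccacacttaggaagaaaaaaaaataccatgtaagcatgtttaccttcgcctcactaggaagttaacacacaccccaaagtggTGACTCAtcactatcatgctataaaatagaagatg
Mmp3 (chr9:7445692-7445821, plus strand): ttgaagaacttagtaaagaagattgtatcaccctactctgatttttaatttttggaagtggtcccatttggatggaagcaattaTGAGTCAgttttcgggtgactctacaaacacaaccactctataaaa
Mmp1a (chr9:7464011-7464140, plus strand): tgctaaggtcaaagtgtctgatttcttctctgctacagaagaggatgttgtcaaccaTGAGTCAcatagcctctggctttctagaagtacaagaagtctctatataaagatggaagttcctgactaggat
Mmp10 (chr9:7502212-7502341, plus strand): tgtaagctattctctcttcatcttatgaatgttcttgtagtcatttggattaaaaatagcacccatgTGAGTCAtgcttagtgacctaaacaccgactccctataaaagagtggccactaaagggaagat
Plaur (chr7:24462353-24462482, plus strand): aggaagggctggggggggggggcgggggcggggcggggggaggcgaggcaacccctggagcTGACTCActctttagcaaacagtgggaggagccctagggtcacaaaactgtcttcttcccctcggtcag
For contrast, the same stretch is given for Timp2, which fell in the clones, and for Mmp14, which activates pro-Mmp2. Neither holds the AP-1 letters.
Timp2 (chr11:118355412-118355541, minus strand): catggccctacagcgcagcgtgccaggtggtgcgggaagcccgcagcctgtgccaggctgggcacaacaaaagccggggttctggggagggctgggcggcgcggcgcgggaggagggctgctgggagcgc
Mmp14 (chr14:54431468-54431597, plus strand): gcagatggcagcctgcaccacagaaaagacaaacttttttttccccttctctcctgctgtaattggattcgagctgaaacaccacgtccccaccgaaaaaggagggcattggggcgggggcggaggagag

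Among the inhibitors, Timp2 separated the clones from every fibroblast-derived sample. It was at -1.54 in MEF, -1.74 in the unselected MEF, -1.69 in the immortalised MEF line and -1.43 in NIH3T3 HRasV12, while the 10-factor clone read -3.17, the 3-factor pair -4.05 and -3.96 and ES -3.36, and the 4-factor clone was at the floor. The 4 fibroblast-derived values lie within a narrow band (SD 0.14), and the clones lie lower without overlap. The difference was -2.39 ± 0.33 (log2, SE, n = 4 and 4; limma adjusted p = 0.00621). Only scan 1 holds both classes. With scan as a block the difference therefore sets the 4- and 10-factor clones against the MEF array alone, and the call was lost (-2.43).

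Timp1, an inhibitor that many cell types induce in response to growth factors, was at 2.44 in MEF, 2.92 in the unselected MEF, 1.91 in NIH3T3 HRasV12 and 1.08 in the immortalised MEF line. The 4-factor clone read 1.25, the 10-factor clone 0.46 and the 3-factor pair 0.79 and 0.85, and ES was lowest at -0.29. The 4-factor clone lay above the immortalised MEF line, so the classes overlap, and the difference of -1.25 ± 0.40 did not pass (limma adjusted p = 0.0943). It passed without the immortalised MEF line (-1.59, limma adjusted p = 0.0249) and with arrays scaled to their median (-1.58, limma adjusted p = 0.0294).

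Timp3, which binds to the extracellular matrix, was at 3.84 in MEF and 4.14 in the unselected MEF. It was at 0.60 in the immortalised MEF line, 1.66 in NIH3T3 HRasV12, 1.20 in ES, and 0.31, 2.23, 1.82 and 1.32 in the 4-factor, 10-factor and both 3-factor clones. Both MEF preparations stood above all other samples, and the immortal lines fell within the range of the clones. The difference between clones and fibroblast-derived samples was -1.14 ± 0.84 and did not pass (limma adjusted p = 0.413). Timp4 was not well above background in any sample, its highest value being -4.43.

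**Figure D2:**
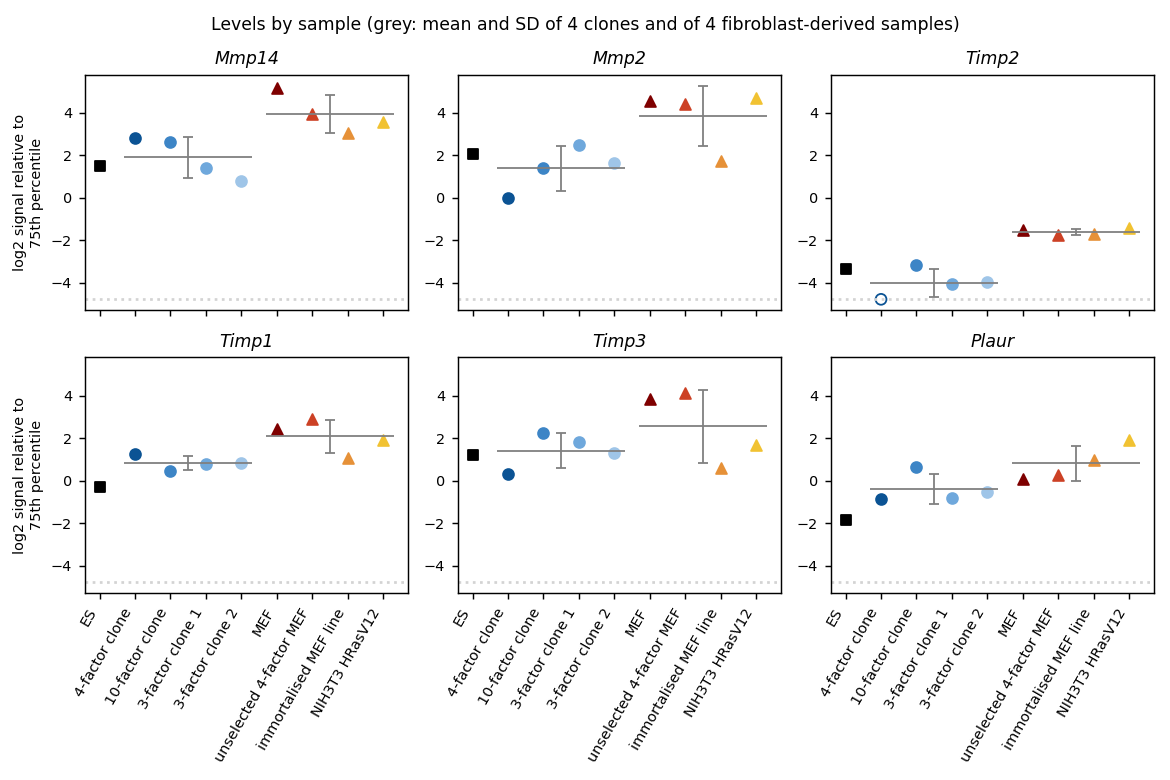
Levels of Mmp14, Mmp2, Timp2, Timp1, Timp3 and Plaur in each sample (y axis, log2 signal relative to the 75th percentile; open symbol, not well above background; grey lines and bars, mean and SD of the 4 clones and of the 4 fibroblast-derived samples). The fibroblast-derived values of Timp2 lie between -1.74 and -1.43, above every clone, while those of Timp3 spread from 0.60 to 4.14.

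Mmp14, the membrane-type protease that activates pro-Mmp2, was detected in every sample and was highest in MEF. It was at 5.16 in MEF, 3.94 in the unselected MEF, 3.57 in NIH3T3 HRasV12 and 3.06 in the immortalised MEF line, while the 4-factor clone read 2.80, the 10-factor clone 2.64, the 3-factor pair 1.42 and 0.79, and ES 1.50. All fibroblast-derived values lie above all clones. The difference of -2.02 ± 0.59 did not pass in the 4 against 4 fit (limma adjusted p = 0.0736). It passed with each array scaled to its median (-2.35, limma adjusted p = 0.0246). With scan as a block the difference was -2.44, which sets the 4- and 10-factor clones against the MEF array alone.

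Mmp2, a gelatinase that cuts denatured collagen and type IV collagen, was at 4.54 in MEF, 4.41 in the unselected MEF and 4.69 in NIH3T3 HRasV12. The immortalised MEF line was at 1.75, within the range of the clones, where the 4-factor clone read -0.02, the 10-factor clone 1.40 and the 3-factor pair 2.49 and 1.64, with ES at 2.06. The difference of -2.47 ± 0.77 did not pass (limma adjusted p = 0.0883) and passed without the immortalised MEF line (-3.17, limma adjusted p = 0.0178). Mmp9, the other gelatinase, read -3.74 in MEF, -4.21 in ES and the floor in the other 7 samples.

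Mmp3 (stromelysin 1), which cuts proteoglycans and fibronectin and activates other proenzymes, varied widely within both classes. It was at 1.13 in MEF and 0.19 in the unselected MEF, but at -2.17 in NIH3T3 HRasV12 and -4.14 in the immortalised MEF line. The 3-factor clones, at 0.53 and -0.38, were near ES (0.24), and the 10-factor clone at -1.58 and the 4-factor clone at -2.93 lay lower. The means of the clones (-1.09 ± 1.50, SD, n = 4) and of the fibroblast-derived samples (-1.25 ± 2.38, SD, n = 4) did not differ beyond this spread.

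Mmp13 (collagenase 3) was well above background only in MEF (-2.25) and the unselected MEF (-4.20), with the other 7 samples at the floor. Mmp10 (stromelysin 2) and Mmp1a, a collagenase of the mouse, were low wherever they were detected. Mmp10 ranged from the floor to -2.77, highest in MEF, with 5 samples well above background. Mmp1a ranged from the floor to -3.93, with ES, both 3-factor clones and NIH3T3 HRasV12 well above background and the other samples at the floor. Mmp7, Mmp8, Mmp12 and Mmp20 of the same cluster were not detected, so 4 of its 8 probes gave a level.

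Among the other Mmp genes, Mmp11 (stromelysin 3), known from the stroma of tumours, was at -0.22 in MEF, 0.06 in the unselected MEF, -0.20 in the immortalised MEF line and -2.07 in NIH3T3 HRasV12. ES read -0.50, the 4-factor clone -0.87, the 10-factor clone -2.07 and the 3-factor pair -2.72 and -2.71. NIH3T3 HRasV12 lay with the clones. Mmp17, a membrane-anchored protease, was highest in ES at -0.36, followed by MEF at -1.19 and the unselected MEF at -1.48. The clones were at -2.87 (4-factor), -2.45 (10-factor), -3.28 and -2.94 (3-factor), and the immortal lines lowest, at -4.60 in NIH3T3 HRasV12 and at the floor value, though called above background, in the immortalised MEF line.

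Mmp23, a membrane-bound member, was high in both MEF preparations alone. It was at 0.53 in MEF and 1.79 in the unselected MEF, -4.33 in ES and -1.41 in the 10-factor clone, and at the floor in the other 3 clones and both immortal lines. Mmp19 was at -3.52 in MEF, -3.80 in the unselected MEF, -4.71 in NIH3T3 HRasV12, -4.60 in the 4-factor clone and at the floor in the other 5 samples. Mmp15, a membrane-type protease, was well above background only in ES (-2.79). In MEF it read -4.67, not well above background, and the other 7 samples were at the floor.

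Adamts2, the enzyme that removes the N-terminal propeptide of fibrillar procollagens, was at 1.36 in MEF and 1.67 in the unselected MEF. It was at -2.03 in NIH3T3 HRasV12, -4.29 in the immortalised MEF line, -3.53 and -3.88 in the 3-factor clones and at the floor in ES and the 4- and 10-factor clones. Adamts5, an aggrecan-cutting enzyme, was at 1.23 in MEF and 2.15 in the unselected MEF. It was at -1.03 in the immortalised MEF line, -3.09 in NIH3T3 HRasV12 and -2.97 in ES, while the 10-factor clone read -2.67, the 3-factor pair -3.28 and -3.75, and the 4-factor clone was at the floor. For both genes the MEF preparations stood apart from all other samples.

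Adamts1, a protease that cuts versican and aggrecan, kept a high level in the immortal lines. It was highest in NIH3T3 HRasV12 (-0.12) and the immortalised MEF line (-0.75), with -1.85 in MEF and -1.99 in the unselected MEF. The 10-factor clone read -3.26, the 3-factor clones -2.94 and -3.34, and the 4-factor clone was at the floor, as was ES. The classes did not overlap, and the difference was -2.40 ± 0.55 (log2, SE, n = 4 and 4; limma adjusted p = 0.0339). The call was lost when any 1 of these 8 samples other than the unselected MEF was left out (limma adjusted p between 0.0514 and 0.0964), and with scan as a block (-2.17, limma adjusted p = 0.176).

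Adamts8 was at -4.35 in MEF, -2.29 in the unselected MEF and -3.37 in ES, and at the floor in all 4 clones and both immortal lines. Adamts4, another aggrecan-cutting enzyme, was detected in every sample within -3.31 and -1.65, with clones and fibroblast-derived samples fully mixed. Adamts15 ranged from the floor to -1.63, highest in the 4-factor clone, and was at the floor in both 3-factor clones and both immortal lines. Adamtsl4, a protein of this family without a protease domain, ranged from the floor to -1.05, highest in the unselected MEF. Adamts9 was detected only in the immortalised MEF line (-3.48).

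Plaur, the urokinase receptor, was well above background on every array. It was highest in NIH3T3 HRasV12 (1.90) and the immortalised MEF line (0.99), followed by the 10-factor clone (0.62), the unselected MEF (0.27) and MEF (0.10). The 3-factor clones were at -0.81 and -0.55, the 4-factor clone at -0.87, and ES lowest at -1.85. The 10-factor clone lay between the immortal lines and MEF, so the classes overlap, and the difference of -1.22 ± 0.49 did not pass (limma adjusted p = 0.164). Plau, the protease it binds, was at the floor in every sample.

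The first comparison asked how the 4 clones differ from the 4 fibroblast-derived samples. Timp2 and Adamts1 fell, no member rose, and 19 of the 21 tested members did not pass. Timp2 was 5.23-fold and Adamts1 5.28-fold lower in the clones, with the 4-factor clone at the floor for both. The size depends on the background correction: with normexp the log2 difference was -0.83 for Timp2 (limma adjusted p = 0.0241) and -1.13 for Adamts1 (limma adjusted p = 0.035). With scan as a block Mmp13, Mmp14 and Mmp19 were called in their place. Of all 12938 probes tested, 4.74% were called lower and 4.19% higher. The members' median difference was -1.14 and that of all probes 0.02, with 17 of the 21 differences below 0. Timp2, Adamts1 and Mmp14 did not overlap between the classes (all lower in the clones), while 9.73% of all probes did not overlap on the low side. No member did so on the high side, where 8.69% of all probes did. The largest differences that did not pass were those of Adamts5 (-3.44 ± 1.10, limma adjusted p = 0.0946) and Adamts2 (-3.42 ± 1.27, limma adjusted p = 0.138), where the fibroblast-derived samples themselves spread widely. Adamts2 passed without the immortalised MEF line (-4.58, limma adjusted p = 0.0266) and Adamts5 without NIH3T3 HRasV12 (-4.41, limma adjusted p = 0.0304). Without the immortalised MEF line 4 members were called in place of 2: Timp1, Timp2, Mmp2 and Adamts2. In that setting 787 of all 12938 probes were called lower and 674 higher. Fibroblast markers moved the same way: 3 of 10 fell, none rose, and their median difference was -4.27.

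The second comparison set the clones against MEF alone, the cell type they came from. With only 1 MEF array, the SE rests on the clones' spread, which MEF was taken to share. Adamts2 fell by 5.60 ± 0.64 on the log2 scale (limma adjusted p = 0.0198), with 2 of 4 clones at the floor. The difference was -3.22 with normexp, and with a lower floor it did not pass (-6.10, limma adjusted p = 0.0511). Adamts5, with 1 clone at the floor, fell by 4.85 ± 0.89 (limma adjusted p = 0.0468). Its difference was -2.82 with normexp and did not pass with scan as a block (-4.96, limma adjusted p = 0.0902) or with a lower floor (-5.10, limma adjusted p = 0.0842). Mmp19 was at the floor in 3 of 4 clones and differed by -1.21 ± 0.12 (limma adjusted p = 0.0141), an SE set largely by the floor. It did not pass with a lower floor (-1.96, limma adjusted p = 0.109) or with normexp (-0.46, limma adjusted p = 0.374). Mmp13, Mmp9 and Adamts8 were at the floor in all 4 clones, so only a bound can be given: the MEF level against the floor. Mmp13 was at least 5.79-fold lower, Mmp9 at least 2.07-fold and Adamts8 at least 1.35-fold, and each was called. These 3 members were tested only because MEF was well above background, and flooring left no spread among the clones, so their p-values support nothing beyond the bound. With normexp none of the 3 passed (limma adjusted p of 0.082 for Mmp13, 0.288 for Mmp9 and 0.319 for Adamts8).

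With probes at the floor in all 4 clones left out, 3 of 19 tested members were called, all lower (Adamts2, Adamts5 and Mmp19), while 4.16% of all 12486 such probes were called lower. With those probes kept the count was 6 of 22, while 9.31% of all 13039 probes were called lower and 4.7% higher. The median difference was -1.72 for the members and 0.04 for all probes, and 21 of 22 differences were below 0, the exception being Mmp1a (0.33). Large differences with a wide spread among the clones did not pass, such as Mmp23 (-4.47 ± 1.67), Mmp14 (-3.25 ± 0.96), Mmp2 (-3.16 ± 1.04), Timp2 (-2.45 ± 0.66) and Timp3 (-2.42 ± 0.82). Mmp23 passed without the 10-factor clone (-5.31, limma adjusted p = 0.00538). Without either 3-factor clone the count fell to 1 member, Mmp13. The MEF array is shared with the first comparison, and 7 of 10 fibroblast markers fell here too.

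**Figure D3:**
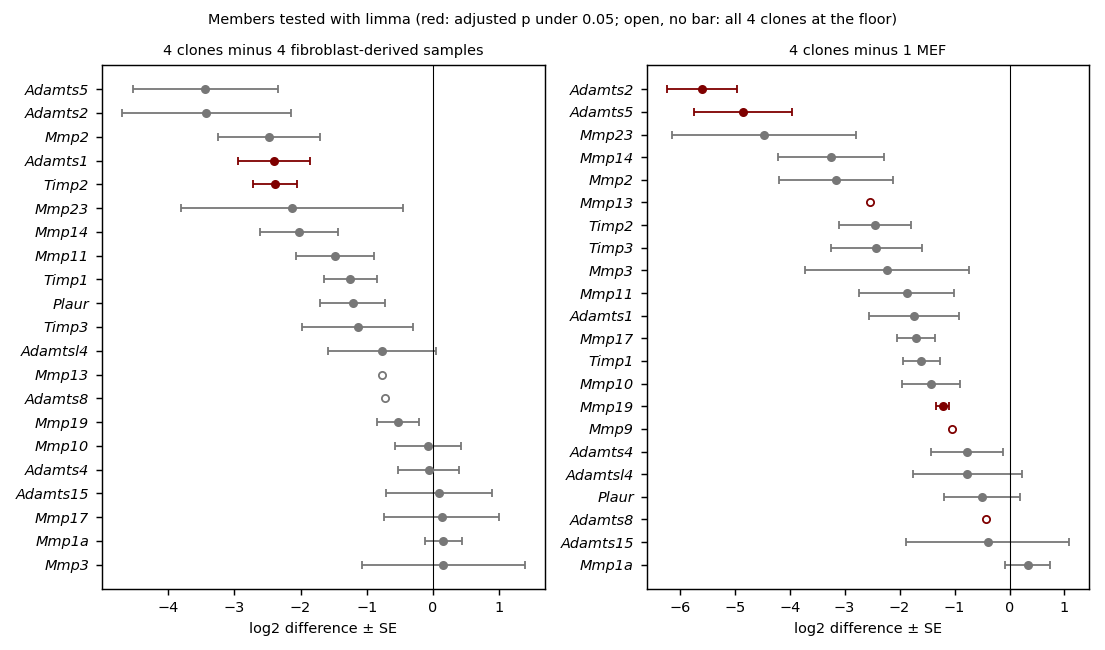
Log2 difference with SE of each tested member, clones minus the 4 fibroblast-derived samples (left, 21 members) and clones minus MEF (right, 22 members); red marks limma adjusted p under 0.05, and open points without a bar had all 4 clones at the floor. Timp2 and Adamts1 are red at the left, and 6 members are red at the right, all below 0, of which 3 are open points.

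The third comparison asked where the clones differ from ES. Mmp17 fell by 2.52 ± 0.35 and was called, with every clone below ES. Its call was lost in 6 of 17 alternatives, where the difference kept its sign. These were without the 4-factor clone, without either 3-factor clone, with that pair averaged, with no filter and within scan 1. Mmp15 was at least 3.97-fold lower, Adamts8 at least 2.66-fold and Mmp9 at least 1.49-fold, and each was called. In these 3 all clones were at the floor and only the ES array was well above background, so the p-values support nothing beyond the bound. With normexp none of the 3 passed, and with arrays scaled to their median or quantile normalized the Mmp9 difference was 0. With probes at the floor in all 4 clones left out, Mmp17 alone was called of 18 tested members, while 2.79% of all 12589 such probes were called lower. With those probes kept the count was 4 of 21, while 9.43% of all 13199 probes were called lower and 4.04% higher. The median was -0.07 for both the members and all probes, and 10 of 21 differences were above 0. Timp1 (1.13 ± 0.33, limma adjusted p = 0.116) and Plaur (1.45 ± 0.69, limma adjusted p = 0.264) were above ES in all 4 clones and did not pass. Timp2 (-0.63 ± 0.66), Timp3 (0.22 ± 0.83), Mmp14 (0.42 ± 0.97) and Adamts5 (-0.65 ± 0.89) differed by less than 1 SE.

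The fourth comparison set the 3-factor clones against the 4- and 10-factor clones. No member passed out of 19 tested (limma), while 0% of all 13541 probes were called higher and 0.0148% lower. At an unadjusted p under 0.05 there were 5 members, beside 3075 of all 13541 probes. Mmp3 (2.33 ± 0.67, limma adjusted p = 0.201) and Mmp2 (1.38 ± 0.68, limma adjusted p = 0.356) were higher in both 3-factor clones than in both others. Mmp14 (-1.61 ± 0.28, limma adjusted p = 0.136) and Mmp11 (-1.25 ± 0.50, limma adjusted p = 0.285) were lower. In all, 6 members were higher and 5 lower without overlap, as were 28.4% and 24.8% of all probes. The 3-factor clones were scanned apart from the others, so scan and factor set cannot be told apart.

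The fifth comparison set NIH3T3 HRasV12 and the immortalised MEF line against MEF and the unselected MEF, since this gene family is often studied in transformed cells. No member passed out of 23 tested (limma; 9 at an unadjusted p under 0.05), and 0% of all 13329 probes were called in either direction, with 1912 of them at an unadjusted p under 0.05. On the low side 13 members did not overlap, against 20% of all probes, and on the high side 2, against 24.7%. The members' median difference was -1.23 and that of all probes 0.01. Mmp23, at the floor in both lines, was at least 61.5-fold lower (limma adjusted p = 0.106). Mmp17 (-3.36 ± 0.25, limma adjusted p = 0.0935), Mmp3 (-3.81 ± 0.88), Adamts2 (-4.68 ± 0.92), Adamts5 (-3.75 ± 0.90) and Timp3 (-2.86 ± 0.48) were also lower in both lines. Plaur (1.26 ± 0.42, limma adjusted p = 0.349) and Adamts1 (1.48 ± 0.33, limma adjusted p = 0.272) were higher in both, and Timp2 differed by 0.08 ± 0.25. With the spread pooled over 9 arrays 4 members were called, all lower: Adamts2, Mmp17, Mmp19 and Mmp23. In that setting 472 of all 13329 probes were called lower and 283 higher. Mmp17 and Mmp19 were at the floor value in the immortalised MEF line. Scan and group cannot be told apart here either, and 1 line is MEF-derived while the other is NIH3T3.

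Each sample was also set against the MEF array by itself, with no test, by counting the probes that differed 5-fold or more where the brighter signal was well above background. In ES 9 of 23 members compared were at least 5-fold lower, against 5.63% of all probes. The counts were 10 of 21 in the 4-factor clone (5.19% of all probes), 6 of 21 in the 10-factor clone (3.53%), and 7 of 22 (5.14%) and 9 of 22 (5.34%) in the 3-factor clones. The immortalised MEF line had 7 of 22 (6.87%), NIH3T3 HRasV12 6 of 22 (5.79%) and the unselected MEF 0 of 21 (1.41%). No member was at least 5-fold above MEF in any sample, while the share of all probes that were was 6.38% in ES, 3.9% with 4 factors, 4.08% with 10 factors and 3.58% and 3.6% in the 3-factor clones. It was 1.31% in the immortalised MEF line, 1.62% in NIH3T3 HRasV12 and 3.47% in the unselected MEF. All these counts share the 1 MEF array, so they are not independent of each other.

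Adamts2 and Mmp13 were at least 5-fold below MEF in 7 of the 8 samples, all but the unselected MEF. Adamts5 was so in 6 samples and was not in the immortalised MEF line. Mmp23 was so in 6, the exceptions being the unselected MEF and the 10-factor clone. Mmp14 was at least 5-fold below MEF in all 4 clones and ES, and in no fibroblast-derived sample. Timp2 was so in 3 clones alone, and Mmp17 in the immortal lines alone. At a fold of 3, members higher than MEF appeared as well: Mmp15 in ES, Adamts15 in the 4-factor clone, Adamts1 and Plaur in NIH3T3 HRasV12, and Adamts8 and Adamtsl4 in the unselected MEF. The share of all probes at a fold of 3 was not counted.

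**Figure D4:**
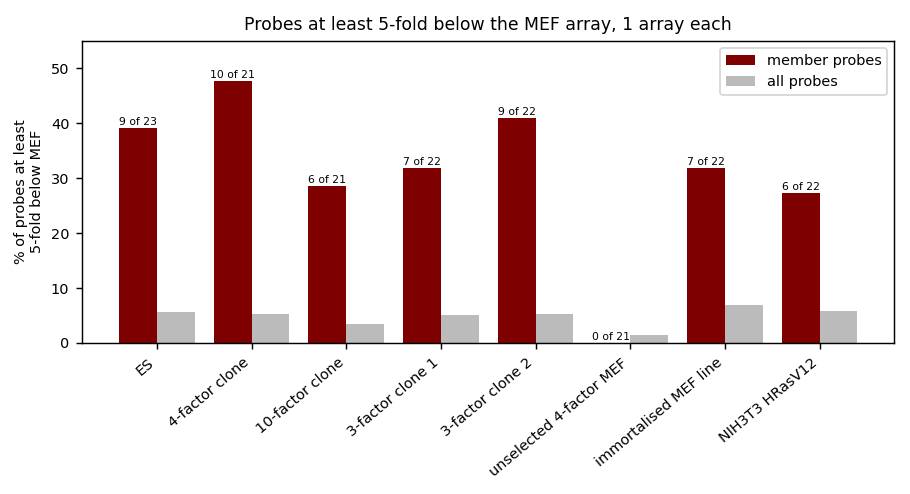
Share of member probes (dark red) and of all probes (grey) at least 5-fold below the MEF array in each other sample (y axis, % of probes compared; numbers give members lower of members compared). The member share is 27.3% to 47.6% in 7 samples and 0% in the unselected MEF, while that of all probes is 1.41% to 6.87%.

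Genes that act with these proteases were described from lists chosen with earlier results of these data known. Their counts stand beside 4.74% of all probes called lower and 4.19% higher against the fibroblast-derived samples, and 9.31% lower and 4.7% higher against MEF. Of the listed genes, Serpinb2, Tfpi2, Adam12, Tll1, Tll2, Ctsh, Ctsk, Ctss and Comp were well above background in MEF and in no clone. They were tested against MEF through that array alone, so a call among them supports nothing beyond a bound. With probes at the floor in all 4 clones left out, 4.16% of all probes were called lower against MEF. In the plasminogen system and its inhibitors (14 genes on the array), 1 of 10 tested fell and none rose between clones and fibroblast-derived samples. This was Plat, the tissue plasminogen activator, which fell by 2.84 ± 0.38 (limma adjusted p = 0.0058), from 0.88 to 2.54 in the fibroblast-derived samples to -1.54 to -0.69 in the clones. Against MEF 6 of 11 fell and none rose. Reck, a membrane-anchored inhibitor of metalloproteinases, fell by 2.19 ± 0.32 against MEF (limma adjusted p = 0.0318). Plg, which encodes plasminogen, was not well above background in any sample.

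Among other membrane and secreted proteases and their partners (23 on the array), 1 of 17 tested fell and 1 rose between clones and fibroblast-derived samples. Furin, a convertase that activates pro-Mmp14, fell by 1.16 ± 0.22 (limma adjusted p = 0.0196). St14 (matriptase), a serine protease of epithelial cells, rose by 4.89 ± 1.09 (limma adjusted p = 0.0322) and was at 1.62 in ES. Of 5 epithelial markers, 2 were also called higher (Cdh1 and Epcam), and the others did not pass. Summed, the 5 were at 22.7 in the unselected MEF, within the 16.4 to 77.9 of the clones. Against MEF 5 of 19 fell, among them the procollagen C-proteinase Bmp1 by 2.47 ± 0.36 (limma adjusted p = 0.0316) and Adam19 by 3.32 ± 0.33 (limma adjusted p = 0.0152).

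Of the cathepsins and cystatins, 0 of 8 passed between clones and fibroblast-derived samples and 4 of 8 fell against MEF. Ctsh, Ctsk and Ctss were at the floor in all 4 clones, so a call among them against MEF supports nothing beyond a bound. Ctsk, a collagen-cutting cathepsin, was well above background in MEF, and also at the floor in ES and the immortalised MEF line. Ctss, known from leukocytes, was at 2.28 in the unselected MEF, where leukocyte markers were highest, and at -2.25 in MEF. Of the substrates of these enzymes (11 on the array), 3 of 8 tested fell against the fibroblast-derived samples and 7 of 8 against MEF, and none rose. Col1a1, Col1a2 and Col3a1 of this list are also fibroblast markers. Acan (aggrecan), the substrate of Adamts4 and Adamts5, was at -1.27 in ES, -3.21 in MEF and -4.31 in the unselected MEF, and at -4.69 or lower in the clones.

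AP-1 and Ets transcription factors bind many Mmp promoters. Of 11 tested, 3 rose and none fell between clones and fibroblast-derived samples, where 4.19% of all probes were called higher and 4.74% lower. Fos was at -0.76 to -0.21 in the clones, at -3.35 in the unselected MEF and not well above background in ES, MEF and both immortal lines (3.95 ± 0.36, limma adjusted p = 0.00157). Fosb rose by 4.34 ± 0.57 (limma adjusted p = 0.00543) and Etv5 by 1.37 ± 0.32 (limma adjusted p = 0.0354). Fosl1 was highest in the immortal lines, at 1.37 in the immortalised MEF line and 1.79 in NIH3T3 HRasV12, with -1.38 in MEF and -2.73 to -1.76 in the clones, a difference that did not pass (limma adjusted p = 0.0992). Of the detected genes with the AP-1 letters shown above, Plaur was highest in the lines with the highest Fosl1, Mmp13 was detected in neither line, and Mmp3 was lowest in the immortalised MEF line. Mmp1a read -4.08 in NIH3T3 HRasV12 and the floor in the immortalised MEF line. Mmp10 read -4.15 in the immortalised MEF line and the floor in NIH3T3 HRasV12, and was highest in MEF. These levels are given side by side, and no relation between factor and gene was tested.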

How the data were processed

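RNA of 9 mouse cell samples was hybridised once each with Cy3, per the labels. The authors deposited intensity values; per the file headers, the scans were read by version 8.5.1.1 of Agilent's Feature Extraction. The processed signal, already background-subtracted by that program, was averaged per probe (control spots and 19 probes with an outlier spot left out), divided by the 75th percentile of its array (175 to 304), set to a floor of 3.63% of it, and log2 was taken. Per array, 39.8% to 49.3% of the probes lay there. The deposited value table held the same signal and served as an alternative.

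A probe was tested if at least 50% of either compared group's arrays had it well above background. Tests were run with limma 3.58.1 (lmFit, eBayes, two-sided, R 4.3.3) over all these probes, with Benjamini-Hochberg adjusted p under 0.05. The tests were checked on simulated data. A bound (at least N-fold) sets the bright mean against the floor, or the probe's own signal if higher, on each dim array. The floor is the highest, over the arrays, of the lowest signal well above background. A bound holds for this scaling alone, because the floor moves with it. Names came from RefSeq accessions (14216 probes), clone names (1383) and descriptions (209 with a known symbol, 288 without), while 4753 probes stayed unnamed. The deposited probe positions name no genome build and are not printed. The promoter table is RefSeq's, GRCm38.p6.

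Values in every sample are given for the Timp genes, Plau, Plaur, Mmp2, Mmp3, Mmp9, Mmp13 and Mmp14, and for members called in a comparison or at least 5-fold from MEF in a sample. The members and lists were chosen with earlier results of these data known. The transgene of the immortalised MEF line is not reported here. Alternatives were the background correction, scaling, floor, filter, scan as a block, averaging of probes or of the 3-factor pair, pooled spread and leaving out each sample.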

Additional observations from a re-analysis of the deposited data

Results flagged for a closer look

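Within a class of 4 samples, 7 of 42 gene and class groups had a sample set far from the other 3 (gap over range above Dixon's critical value). In 5 of them the other 3 samples are tied at the floor, which sets the flag whatever the value. The chance rate of about 1 in 20 groups does not apply to those 5. Among the fibroblast-derived samples, Mmp2 stood low in the immortalised MEF line at 1.75, and Mmp11 stood low in NIH3T3 HRasV12 at -2.07. Adamts9 was at -3.48 in the immortalised MEF line, Mmp1a at -4.08 in NIH3T3 HRasV12 and Mmp9 at -3.74 in MEF, each with the other 3 samples at the floor. Among the clones, Mmp23 was at -1.41 in the 10-factor clone and Mmp19 at -4.60 in the 4-factor clone, again with the other 3 at the floor.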

How the results depend on the processing

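Over 204 alternative values of the 12 called member differences, 68 did not pass the threshold and none turned its sign; Mmp2 between the immortal lines and the MEF preparations, which was not called, ranged from -2.72 without NIH3T3 HRasV12 to 0.22 without the immortalised MEF line. Of the 50 other differences of named members 20 passed in some alternative. No paired analysis was possible because the groups compared share fewer than 2 replicate numbers.

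For the clones against fibroblast-derived samples, 2 members and 1155 probes were called. The counts were 1 and 440 with the 3-factor pair averaged, 1 and 630 with no filter, 3 and 738 with scan as a block (Mmp13, Mmp14 and Mmp19, none of them among the 2), and 0 and 0 within scan 1 (2949 at an unadjusted p under 0.05). Scan as a block sets the 4- and 10-factor clones against the MEF array alone here, and Mmp13 was at the floor in every clone. Its counts therefore bear on that contrast and not on the 2 classes. Leaving out a sample gave 1 to 4 members and 393 to 1559 probes. With arrays scaled to their median, 284 probes were called higher and 694 lower, and the median of all differences moved to -0.27.

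For the clones against MEF (6 members and 1827 probes), the counts were 1 and 347 with the pair averaged, 3 members with a lower floor, 946 probes with normexp, 1181 with pooled spread, 0 and 0 within scan 1 (3103 unadjusted), and 3 and 873 without probes at the floor in all 4 clones, an alternative chosen after seeing the data. Leaving out a clone gave 1 to 7 members and 334 to 1864 probes; with median scaling 271 were called higher and 977 lower. For the clones against ES (4 and 1778), they were 2 and 505 with the pair averaged, 1 and 490 with normexp, 1161 probes with a lower floor, 1014 with median scaling, 0 and 0 within scan 1 (3036 unadjusted), and 1 and 595 without probes at the floor in all clones. Leaving out a clone gave 2 to 5 members and 495 to 2058 probes.

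For the 3-factor clones against the others (0 members and 2 probes), normexp called 1 member (Mmp14) and 381 probes, a lower floor 1 probe, median scaling 0, no filter 38, quantile normalization 7 and pooled spread 118. Leaving out a clone gave 0 to 3 members and 0 to 719 probes, the high counts without the 4-factor or 10-factor clone. For the immortal lines (0 and 0), a lower floor called 2 members and 214 probes, no filter 57 probes, normexp 12, pooled spread 4 and 755, and a filter on all arrays of a group 2 and 127. Leaving out a sample gave 0 to 3 members and 0 to 686 probes, the latter without MEF. Scan as a random block could not be fitted there, and slide was not run as a block because each slide holds 1 array.

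At a fold of 3 in either direction, 12 members differed from MEF in the 10-factor clone, 12 in the first 3-factor clone, 13 in NIH3T3 HRasV12 and 4 in the unselected MEF. The share of all probes at this fold was not counted, so these member counts have no background. The cause of the changes between settings was not tested, except that settings with fewer samples have fewer degrees of freedom. Signal over background limits the 15 members detected on only some arrays.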
